A study of Homo sapiens with 4 samples.

Results

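The genes described here are 10 markers and lineage genes of ovarian cancer, namely SLPI, LCN2, WFDC2, CLU, MUC1, MUC16, MSLN, FOLR1, PAX8 and WT1, out of 19475 gene symbols measured. They were chosen by symbol, and each was represented by whichever of its transcripts had the highest mean in the 4 libraries. The cells were of SKOV3, a long-established line from a human ovarian cancer, and the labels name no genetic change in them. Of the RNA-seq libraries, 2 came from cells on a tissue culture plate (TCP), which the labels place at day 0. The other 2 came from day 8 on polymer X, a thin polymer coating on which the cells grow as tumor spheroids, and which is a modified form of an earlier coating, pV4D4. In the methods of the study, spheroids were dissociated every 4 days. The methods give fetal bovine serum for the maintenance of SKOV3 and serum replacement for spheroids, while a single protocol in the labels, with serum replacement, covers the samples of both groups. Substrate, culture time and possibly medium therefore changed together, and their effects cannot be told apart. The comparison asks how the levels of these genes differed between spheroids on polymer X and cells on TCP.

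Most epithelial ovarian cancers are thought to resemble the epithelia that derive from the Müllerian duct, and PAX8, a transcription factor of that lineage, is used in pathology to recognise them. WT1 is a further nuclear marker, typical of the serous type. The clinic also measures proteins that such tumors shed or secrete, among them CA125, which is encoded by MUC16, and HE4, which is encoded by WFDC2. MSLN, FOLR1 and MUC1 encode proteins at the cell surface that serve as targets of antibodies or cell therapies.

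The deposited values are FPKM, counts of sequenced tags corrected for transcript length and library depth, so that levels can be compared between genes. From the steps between values, the libraries held 38403000 to 44917000 tags. Of all symbols, 11964 reached an FPKM of 1 in 2 or more libraries and were tested with limma on log2(FPKM + 1), a scale that makes the change of lowly expressed genes look smaller. Genes with an adjusted p under 0.05 were called higher from a log2 fold change of 1 upward, and lower from -1 downward. Nothing in the labels says that the 2 samples of a group were separate cultures, so an adjusted p rests on the spread between these samples. Limma shares that spread across genes, so it is not the spread of a single gene alone. With 2 libraries a group, the smallest two-sided p of an exact permutation test is 0.333. Epithelial keratin transcripts were present in all libraries, with KRT8 at 262 and 269 FPKM on TCP and 146 and 143 on polymer X. EPCAM, another epithelial marker, was low, at 0.168 and 0.104 FPKM on TCP and 1.39 and 1.33 on polymer X.

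Of the 10 genes, 8 passed the filter on low values, and 5 of these were called higher on polymer X, where 10.7% of all tested genes were. These were SLPI, LCN2, WFDC2, MUC1 and PAX8. With limma, 0 of the 8 were called lower, against 9.45% of all tested genes. By the adjusted p alone, and likewise by an unadjusted p under 0.05, 7 were higher and 1, CLU, was lower, where the adjusted p alone put 37.4% of all tested genes higher and 43.6% lower. The libraries of the groups did not overlap for any of the 8, which was also the case for 90.4% of all tested genes. The median log2 fold change of the 8 was 1.85, and that of all tested genes was -0.06. WT1 and MUC16 stayed under the filter. WFDC2 passed it through its values on polymer X alone. LCN2 and MSLN each reached an FPKM of 1 in 1 TCP library, so they too needed polymer X to pass. With these values on TCP, none of WFDC2, LCN2 and MSLN could have been called lower.

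**Figure D1:**
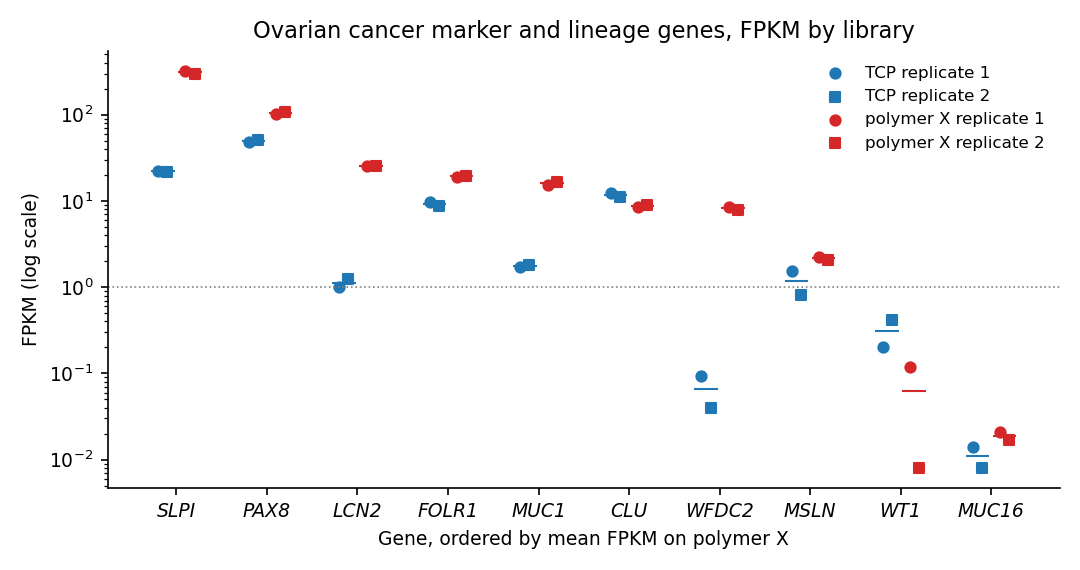
FPKM on a log scale of the 10 genes in each library, ordered by the mean on polymer X, with circles for replicate 1, squares for replicate 2, short lines for group means and a dotted line at the filter value of 1. SLPI reached 325 and 297 FPKM on polymer X and WFDC2 moved from below 0.1 to about 8 FPKM, while CLU lay lower on polymer X and MUC16 stayed under 0.03 in every library.

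For 4 of the 5 genes called higher, the bases just upstream of the start site are shown, so that the start regions of genes that differed in the same direction can be compared. RefSeq promoter entries were found for 6 of the 10 genes. The windows hold the 250 bases before the annotated start in GRCh38.p14, read 5′ to 3′ on the strand of the gene, with motif matches in capitals. They lie at chr20:45469503-45469752 on the plus strand for WFDC2, chr9:128149203-128149452 on the plus strand for LCN2, chr1:155192916-155193165 on the minus strand for MUC1 (the first of 2 starts listed) and chr2:113278922-113279171 on the minus strand for PAX8.
WFDC2: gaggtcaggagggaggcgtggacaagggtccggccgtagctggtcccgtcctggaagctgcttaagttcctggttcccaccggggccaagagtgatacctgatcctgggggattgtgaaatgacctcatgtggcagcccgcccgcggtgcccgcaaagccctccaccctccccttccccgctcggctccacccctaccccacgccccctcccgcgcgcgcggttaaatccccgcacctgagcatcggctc
LCN2: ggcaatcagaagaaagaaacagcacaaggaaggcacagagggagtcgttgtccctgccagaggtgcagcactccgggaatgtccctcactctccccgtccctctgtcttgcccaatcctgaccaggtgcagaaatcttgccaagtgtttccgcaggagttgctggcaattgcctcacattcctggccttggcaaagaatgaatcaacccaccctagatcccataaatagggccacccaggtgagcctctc
MUC1: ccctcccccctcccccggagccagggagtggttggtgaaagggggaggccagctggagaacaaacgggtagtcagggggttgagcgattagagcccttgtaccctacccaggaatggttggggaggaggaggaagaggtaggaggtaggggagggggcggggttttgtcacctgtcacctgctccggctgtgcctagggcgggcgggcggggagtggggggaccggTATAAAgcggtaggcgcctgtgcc
PAX8: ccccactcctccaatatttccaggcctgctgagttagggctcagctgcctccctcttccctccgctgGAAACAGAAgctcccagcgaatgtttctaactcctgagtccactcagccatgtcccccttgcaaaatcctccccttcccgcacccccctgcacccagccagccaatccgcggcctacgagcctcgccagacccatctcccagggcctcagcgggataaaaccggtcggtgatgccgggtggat
The motifs searched on both strands were TATAAA, the core of a TATA box, TTCNNNGAA, the palindrome that STAT proteins bind, and GAAANNGAA, the core of an interferon response element. Windows of this length held them in 10.7%, 6.57% and 6.88% of 35093 promoters. The MUC1 window held TATAAA at position -24 from the start. The PAX8 window held GAAANNGAA at position -183. The WFDC2 and LCN2 windows held none of these letters. The windows also differed in composition, with 19 CpG dinucleotides and 67.2% GC for WFDC2, 4 and 54.8% for LCN2, 11 and 66.0% for MUC1, and 11 and 61.6% for PAX8, against a median of 11 and 58.0% for all promoters. A match describes the letters and not a bound site.

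Among the secreted proteins, SLPI and LCN2 had the largest differences on the scale of log2(FPKM + 1). SLPI, a secreted inhibitor of leukocyte elastase and related serine proteases, was measured on NM_003064, a minus-strand transcript at chr20:43880880-43883205 of hg19. It had 22.5 and 21.9 FPKM on TCP and 325 and 297 FPKM on polymer X. Both spheroid libraries lay far above both plate libraries, and the replicates of each group stood within 1.09-fold of each other. The mean was 22.2 ± 0.383 FPKM on TCP and 311 ± 19.3 FPKM on polymer X (SD, n = 2), a ratio of 14.02, with single pairs of libraries between 13.2 and 14.8. The log2 fold change was 3.75 with a standard error of 0.06 and an adjusted p of 2.6e-10, and it was larger than that of 99.8% of the tested genes. By level, SLPI stood above 85.3% of all symbols on TCP and above 99.6% on polymer X.

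LCN2 encodes lipocalin-2, a secreted protein that carries bacterial siderophores and can travel bound to the protease MMP9. NM_005564 lies on the plus strand at chr9:130911709-130915734 of hg19. Its FPKM was 0.997 and 1.25 on TCP and 25.6 and 25.2 on polymer X. The plate libraries were both near the filter value, and the spheroid libraries differed from each other by 1.02-fold. These values correspond to 32 and 47 tags on TCP and to 857 and 856 on polymer X. The means of 1.12 ± 0.180 and 25.4 ± 0.312 FPKM (SD, n = 2) gave a ratio of 22.6, with pairs between 20.1 and 25.7. The log2 fold change was 3.64 with a standard error of 0.08 and an adjusted p of 1.2e-09. On the ratio of FPKM, LCN2 thus changed more than SLPI, whereas the order was the opposite on the scale of the test.

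WFDC2 encodes HE4, a small secreted protein with WAP domains, the same type of domain that SLPI carries. NM_006103 lies on the plus strand at chr20:44098394-44110172 of hg19 and is only 561 bases long. Its values were 0.093 and 0.04 FPKM on TCP, which stand for 2 and 1 tags. On polymer X they were 8.59 and 7.76 FPKM, or 193 and 177 tags. WFDC2 was therefore at the floor of 3 tags or under it in the plate libraries and well above the filter in both spheroid libraries. The ratio of tag rates was 127, with an exact 95% counting interval of 43.2 to 620, which covers counting error only. The log2 fold change on the scale of the test was 3.10 with a standard error of 0.08 and an adjusted p of 3.4e-09, and with a pseudocount of 0.1 in place of 1 it was 5.65. The mean on polymer X, 8.17 ± 0.593 FPKM (SD, n = 2), was above that of 68.6% of all symbols.

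CLU differed from the other secreted proteins in direction. It encodes clusterin, an extracellular chaperone, and NM_001831 lies on the minus strand at chr8:27454434-27472328 of hg19. Its FPKM was 12.2 and 11.1 on TCP and 8.60 and 8.99 on polymer X. Both spheroid libraries were below both plate libraries. The means were 11.7 ± 0.781 and 8.80 ± 0.274 FPKM (SD, n = 2), that is, 1.33-fold lower on polymer X. The log2 fold change of -0.37, with a standard error of 0.07 and an adjusted p of 0.00071, did not reach the minimum size, so CLU was not called. By this measure, 33.2% of the tested genes had a lower value than CLU.

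Of the surface proteins, MUC1 was called higher. It encodes a membrane-bound mucin of the apical surface of epithelia. The file holds 20 transcripts of it, and NM_001204294 on the minus strand at chr1:155158300-155162706 of hg19 had the highest mean. Its FPKM was 1.71 and 1.79 on TCP and 15.3 and 16.7 on polymer X. The replicates lay close together and the groups far apart. The means of 1.75 ± 0.0608 and 15.995 ± 0.967 FPKM (SD, n = 2) gave a ratio of 9.14, with pairs between 8.54 and 9.77. The log2 fold change was 2.63 with a standard error of 0.07 and an adjusted p of 3.8e-09. The ratio was 8.37 to 9.48 over the 20 transcripts. These can count the same tags, so their ratios are not separate measurements.

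MUC16, which encodes the very large mucin that carries CA125, was barely detected. NM_024690 spans chr19:8959520-9092018 on the minus strand of hg19 and is 43730 bases long, so that even a low FPKM rests on several tags. Its FPKM was 0.014 and 0.008 on TCP and 0.021 and 0.017 on polymer X. These values stand for 24 and 16 tags against 37 and 30, each uncertain by up to 0.98 of a tag because FPKM was rounded to 3 decimals. The spheroid libraries were the higher pair, and the ratio of tag rates was 1.73 with an exact 95% counting interval of 1.15 to 2.63. That interval leaves out the spread between cultures. MUC16 was below the filter in every library. When the filter was dropped, its log2 fold change was 0.01 with a standard error of 0.02 and an adjusted p of 0.67 with limma. A pseudocount of 1 far exceeds its FPKM, so that fit could hardly show a change of this size.

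FOLR1 encodes folate receptor alpha, a membrane-anchored receptor that takes up folate. NM_000802 lies on the plus strand at chr11:71900959-71907367 of hg19. Its FPKM was 9.69 and 8.83 on TCP and 19.2 and 19.5 on polymer X. The groups did not overlap, and the ratio of the means, 9.26 ± 0.607 and 19.3 ± 0.208 FPKM (SD, n = 2), was 2.09. With a log2 fold change of 0.99, a standard error of 0.06 and an adjusted p of 6.5e-07, FOLR1 stood just under the minimum size and was not called. It crossed the minimum in 5 of 13 alternatives, among them the fit without TCP replicate 1, where the log2 fold change was 1.05.

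MSLN encodes mesothelin, a surface protein of mesothelial cells and of many ovarian cancers that binds MUC16. NM_005823 lies on the plus strand at chr16:810765-818865 of hg19. Its FPKM was 1.55 and 0.818 on TCP and 2.24 and 2.06 on polymer X, or 128 and 79 tags against 193 and 180. The plate libraries differed from each other by 1.90-fold, which is about as much as the ratio of 1.82 between the group means of 1.18 ± 0.518 and 2.15 ± 0.131 FPKM (SD, n = 2). The log2 fold change was 0.55 with a standard error of 0.14 and an adjusted p of 0.0053, and MSLN was not called. Without TCP replicate 1 the log2 fold change was 0.79, without TCP replicate 2 it was 0.30, and with quantile normalization it was 0.21 with an adjusted p of 0.17.

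Of the nuclear markers, PAX8 was highly expressed and WT1 was under the filter. PAX8 was measured on NM_003466, a minus-strand transcript at chr2:113973574-114036498 of hg19. Its FPKM was 48.8 and 50.5 on TCP and 102 and 108 on polymer X. PAX8 was thus among the higher genes already on TCP, above 93.9% of all symbols, and both spheroid libraries were higher still. The means of 49.7 ± 1.201 and 105 ± 3.96 FPKM (SD, n = 2) gave a ratio of 2.11. The log2 fold change was 1.06 with a standard error of 0.06 and an adjusted p of 1.7e-07, just above the minimum size. Of the tested genes, 90.1% had a lower log2 fold change than PAX8. The antisense gene PAX8-AS1 covers 375 of the 4234 exon bases of PAX8 in GENCODE, and since strand was not used in counting, tags there cannot be assigned to either gene.

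WT1, a zinc finger transcription factor of the developing kidney, gonad and mesothelium, was low in all libraries. NM_000378 lies on the minus strand at chr11:32409321-32457085 of hg19. Its FPKM was 0.202 and 0.421 on TCP and 0.118 and 0.008 on polymer X, which stand for 23 and 56 tags against 14 and 1. The spheroid libraries were the lower pair, but the replicates differed by 2.08-fold on TCP and 14.7-fold on polymer X. The ratio of tag rates was 0.196 with an exact 95% counting interval of 0.105 to 0.343, which does not include that spread. WT1 was under the filter and was not tested. When the filter was dropped, its log2 fold change was -0.30 with an adjusted p of 0.043 in limma. Summing the FPKM of its 5 transcripts, which counts shared tags repeatedly, lifted it over the filter through TCP alone. The log2 fold change was then -0.97 with an adjusted p of 0.0056 in limma. These values rest on the repeated counts and add no support.

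**Figure D2:**
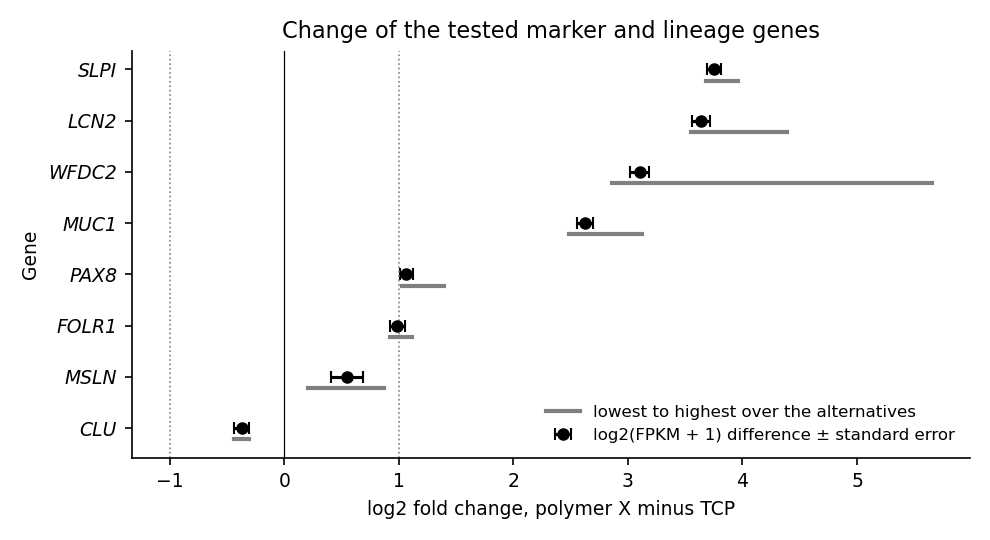
Log2 fold change on log2(FPKM + 1), polymer X minus TCP, of the 8 tested genes, with points and bars for the estimate and its standard error, grey lines from the lowest to the highest value over the alternative settings, and dotted lines at the minimum size of 1 in either direction. SLPI, LCN2, WFDC2 and MUC1 lie above 2, PAX8 and FOLR1 lie on either side of 1, and CLU is the gene below 0.

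Because FPKM is scaled to length, the levels can be ordered within each group. On TCP, PAX8 was highest, followed by SLPI, CLU, FOLR1, MUC1, MSLN, LCN2, WT1, WFDC2 and MUC16. The libraries of MSLN and LCN2 overlapped there, so those neighbours were not separated. On polymer X, SLPI was highest, followed by PAX8, LCN2, FOLR1, MUC1, CLU, WFDC2, MSLN, WT1 and MUC16, and the last pair overlapped. SLPI and PAX8 changed places at the top, and LCN2 moved from the seventh place to the third. CLU went from the third place to the sixth. No other neighbouring genes in either order had overlapping libraries. On polymer X, however, CLU at 8.602 and 8.99 FPKM and WFDC2 at 8.594 and 7.755 nearly touched, so their order was not settled.

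Related genes were read from lists by role, with the members left out. The counts of genes that rose or fell in each list are of called genes. Over all tested genes, 10.7% were called higher and 9.45% lower. By the adjusted p alone, 37.4% were higher and 43.6% lower. Of 14 other mucins in the file, MUC20 was the sole one that passed the filter, and it rose from 1.04 and 1.07 FPKM on TCP to 4.24 and 4.92 on polymer X, with a log2 fold change of 1.44 and an adjusted p of 3.4e-07 in limma. The mucin genes MUC15, MUC17 and MUC21 were at 0 in every library. Among 15 other surface antigens of ovarian tumors, 10 were tested, 4 rose and 1 fell, with a median log2 fold change of 0.53. ERBB2, the HER2 receptor, rose from 198 and 206 to 913 and 860 FPKM, a log2 fold change of 2.13. The claudins CLDN4 and CLDN3, strands of tight junctions, rose by log2 fold changes of 2.05 and 1.68, and CDH6, a cadherin of kidney and ovarian tumors, fell by 1.49 on the log2 scale, from 18.6 and 20.8 to 7.02 and 5.72 FPKM. The other riser was EPCAM, and both EPCAM and CLDN3 passed the filter through polymer X alone.

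Of 22 other transcription factors of the Müllerian tract and ovary, 10 were tested, 3 rose and 1 fell, with a median log2 fold change of 0.26. PAX8 was higher in FPKM than each of these 22 in the file. SOX17, which is expressed with PAX8 in many ovarian cancers, had 11.5 and 11.6 FPKM on TCP and 13.5 and 12.8 on polymer X, with a log2 fold change of 0.17, and was not called. The genes called higher were BHLHE41, a circadian repressor, at 1.69, ESR1, the estrogen receptor alpha, at 1.24, and MECOM, a zinc finger regulator, at 1.09. ESR1 had 0.363 and 0.384 FPKM on TCP and so passed the filter through polymer X alone. BHLHE41 had 0.911 and 1.33 FPKM on TCP, so it also needed its values on polymer X to pass. LHX1, a homeobox factor of the early kidney and Müllerian duct, fell by 2.11, from 16.5 and 16.2 to 2.91 and 3.10 FPKM.

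SLPI belongs to the protease inhibitors, and WFDC2 shares its domain. Of 15 other inhibitors, 8 were tested and 6 of them rose, with a median log2 fold change of 1.75. With limma 0 were called lower, and 0 were lower at an unadjusted p under 0.05. Of all tested genes, 10.7% were called higher, 9.45% were called lower and 43.6% were lower by the adjusted p alone. SERPINA1, the alpha-1 antitrypsin gene, rose from 1.70 and 2.33 to 24.03 and 22.9 FPKM, a log2 fold change of 3.03. SPINT1, which inhibits the activator of hepatocyte growth factor and matriptase, had 0.507 and 0.581 FPKM on TCP and 8.90 and 8.30 on polymer X, and its log2 fold change was 2.64. PI3, which encodes the elastase inhibitor elafin, had 0.331 and 0.567 FPKM on TCP and 5.68 and 5.50 on polymer X, and its log2 fold change was 2.19. SPINT1, PI3 and WFDC13, which make up 3 of the 6, passed the filter through polymer X alone. So did SERPINA3, tested but not called, at 0.576 and 0.450 FPKM on TCP and 1.70 and 2.11 on polymer X. None of these genes could have been lower. The kallikreins, serine proteases that include further ovarian tumor markers, gave a contrast in level, since 0 of 13 passed the filter and 9 were at 0 in every library.

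Genes of folate uptake and use, the process that FOLR1 serves, mostly lay lower on polymer X while FOLR1 itself was higher. Of 16 such genes, 14 were tested and 5 fell, with a median log2 fold change of -0.58. TYMS, which makes thymidylate with a folate cofactor, fell by 1.96 on the log2 scale, from 112 and 105 to 27.9 and 26.2 FPKM. MTHFD1 and MTHFD2, enzymes of the cytosolic and mitochondrial folate cycles, fell by 1.75 and 1.25. Of the other carriers of folate, SLC19A1 and SLC46A1 had log2 fold changes of 0.41 and 0.86 and were not called. The receptor gene FOLR2 was at 0 in every library.

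Of 13 receptors, partners and processing enzymes of LCN2, CLU and the mucins, 8 were tested, 2 rose and 0 were called lower with limma, with 1 lower at an unadjusted p under 0.05. The median log2 fold change was 0.72. GALNT3 and ST3GAL1, tested but not called, passed the filter through polymer X alone, so they could not have been lower. SLC22A17, a receptor for lipocalin-2, rose from 1.80 and 2.13 to 8.30 and 8.33 FPKM, a log2 fold change of 1.66. BDH2, an enzyme linked to the mammalian siderophore that LCN2 binds, rose by 1.75. MMP9, the protease that LCN2 binds, was under the filter, at 0.056 and 0.058 FPKM on TCP and 0.431 and 0.646 on polymer X. Of 16 other serum markers, 7 were tested and 4 rose, with a median log2 fold change of 1.71, while 0 were lower in limma, also at an unadjusted p under 0.05. The shares of all tested genes were 10.7% called higher and 43.6% lower by the adjusted p alone. MMP7, a matrix metalloprotease, had 0.280 and 0.120 FPKM on TCP and 13.7 and 12.2 on polymer X, with a change of 3.54 on the log2 scale, and passed the filter through polymer X alone. So did MDK, tested but not called, at 0.342 and 0.180 FPKM on TCP. Neither MMP7 nor MDK could have been lower. IGFBP2, which binds insulin-like growth factors, rose by 3.39 and GRN, which encodes progranulin, by 2.13.

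**Figure D3:**
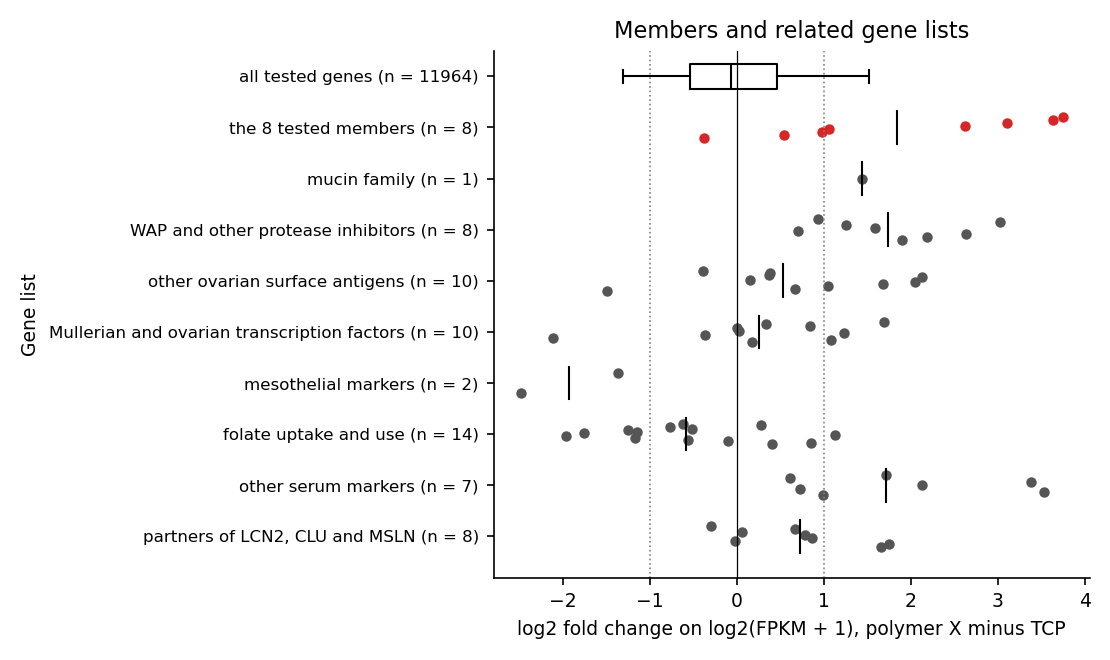
Log2 fold change on log2(FPKM + 1), polymer X minus TCP, of the tested members (red) and of the tested genes of each related list (grey), with a vertical bar at each median. The box shows the quartiles and median of all 11964 tested genes, with whiskers at the 5th and 95th percentiles, and dotted lines mark the minimum size of 1 in either direction. The medians of the protease inhibitors and serum markers are 1.75 and 1.71, beside 1.85 for the members, and that of the folate genes is -0.58.

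Markers of other cells were read beside these results, since SLPI and LCN2 are also made by leukocytes and MSLN and WT1 by mesothelial cells. In bulk RNA, fewer cells of a type and less RNA per cell cannot be told apart. Of 10 leukocyte markers, 1 was tested, CD68, which is also expressed outside leukocytes, and it rose from 17.0 and 17.4 to 42.3 and 44.9 FPKM. The summed level of the list was 17.3 to 17.5 FPKM on TCP and 43.4 to 46.1 on polymer X, nearly all of it from CD68. The lymphocyte genes CD3E, CD3D and MS4A1 were at 0 in every library, and PTPRC, the common leukocyte antigen, was at 0.005 and 0 FPKM on TCP and 0.468 and 0.530 on polymer X. Of 10 mesothelial markers, 2 were tested and both fell. LRRN4 fell by 2.48 and BNC1 fell by 1.36 on the log2 scale, BNC1 having passed the filter through TCP alone, and ITLN1 was at 0 in every library. The summed mesothelial level was 16.9 to 18.0 FPKM on TCP and 3.52 to 4.16 on polymer X. Most of the sum on TCP came from LRRN4, at 11.0 and 11.8 FPKM. The members MSLN and WT1 are also mesothelial markers and were left out of the sum. MSLN had a higher mean on polymer X, and WT1, under the filter, a lower one. Endothelial markers summed to 0.640 to 1.03 FPKM over all libraries and 0 of 8 passed the filter. Within that sum, PECAM1 was at 0 in both TCP libraries and at 0.573 and 0.458 FPKM on polymer X. KDR went the other way, from 0.476 and 0.438 FPKM on TCP to 0.215 and 0.110 on polymer X. Fibroblast and mural cell markers summed to 18.3 to 19.0 FPKM on TCP and 79.9 to 89.4 on polymer X, and 5 of 6 tested rose, among them the matrix protein genes LUM, DCN and COL3A1 with log2 fold changes of 4.31, 2.93 and 2.53. Of these 5, LUM, DCN, COL3A1 and ACTA2 passed the filter through polymer X alone. The other, COL1A2, was the largest single part of the sum, at 8.41 and 8.75 FPKM on TCP and 45.8 and 42.2 on polymer X. The sixth tested gene, COL1A1, was lower, at 8.21 and 8.48 FPKM on TCP and 3.81 and 3.77 on polymer X, with a log2 fold change of -0.96, and was not called. THY1, RGS5 and PDGFRB were under the filter, with lower means on polymer X. All libraries were of 1 cell line, SKOV3, and the methods describe no other cell type in these cultures. A change in these markers is therefore given as a level of transcripts and not as a number of such cells. The part of these cell types in the values of the members was not tested.

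SLPI and WFDC2 lie near each other on chromosome 20, with start sites 215.2 kb apart, in a region that holds many genes of WAP proteins. The genes within 250 kb of the pair were examined, a window chosen after the values of both genes had been seen. The window held 27 genes, of which 8 were tested besides SLPI and WFDC2, and their median log2 fold change was 0.52. Called higher were PI3 at 2.19, WFDC10B at 2.59 and WFDC13 at 1.91, and 0 of the 8 were called lower with limma. These 3 passed the filter through polymer X alone, so they could not have been called lower. Of all tested genes, 10.7% were called higher and 9.45% lower. WFDC10B and WFDC13 overlap on opposite strands, over 3004 bases of their spans in hg19 and over 65 exon bases in GENCODE, where tags cannot be assigned to either gene. They had 0.125 and 0.071 FPKM on TCP against 5.47 and 5.77 on polymer X for WFDC10B, and 0.114 and 0.065 against 2.36 and 3.96 for WFDC13.

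Between the start sites of SLPI and WFDC2 lie 7 genes, of which 4 were tested, and none of the 4 was called. SDC4, which encodes a cell surface proteoglycan, had 93.0 and 96.4 FPKM on TCP and 113 and 116 on polymer X, with a log2 fold change of 0.27. SYS1, DBNDD2 and PIGT had log2 fold changes of 0.19, 0.57 and 0.46. SEMG1 and SEMG2, the semenogelin genes that lie between PI3 and SLPI, were at 0 in every library. WFDC5, at 0 on TCP, had 17 and 15 tags on polymer X, and SPINT4 had 0 and 1 tags on TCP and 19 and 29 on polymer X, both under the filter.

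**Figure D4:**
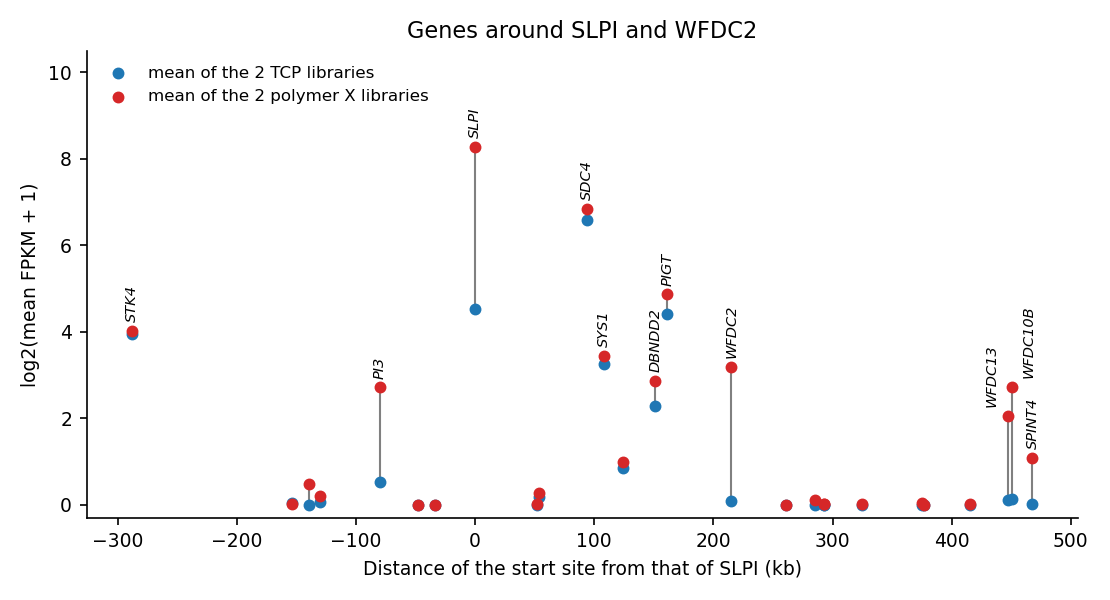
Mean level as log2(mean FPKM + 1) of each gene of the window on chromosome 20 against the distance of its start site from that of SLPI in kb, with blue points for TCP, red points for polymer X and a line joining them. SLPI, PI3, WFDC2, WFDC13 and WFDC10B show long lines, while SDC4, SYS1, DBNDD2 and PIGT, which lie between SLPI and WFDC2, show short ones.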

How the data were processed

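Magnetically isolated mRNA of 4 SKOV3 libraries, 2 on TCP and 2 on polymer X, was sequenced by the authors. The submitters' processing notes name STAR 2.4.0, HOMER, DESeq and hg19, without giving the role of each. Per the file headers, the deposited FPKM values were made by the authors with HOMER from tags on exons of both strands for 50078 RefSeq transcripts, rounded to 3 decimals. ULA and V4D4 libraries named in the header were not analysed here. Tags per library were recovered from the steps between low values, all of which lay within 0.1 of a whole tag, and intervals on tags (exact, 95%) cover counting error only. Each symbol was represented by the transcript of highest mean FPKM. The 11964 genes that reached 1 FPKM in 2 or more libraries were fitted in limma 3.58.1 (R 4.3.3) on log2 values with a pseudocount of 1, a mean-variance trend and no block, with Benjamini-Hochberg adjustment. The procedure was tested on simulated data. Correlations between replicates were 0.998 on TCP and 0.997 on polymer X, and the median standard error was 0.071. Alternatives comprised a pseudocount of 0.1, the filter dropped or raised to a mean of 5 FPKM, median or quantile scaling, a replicate block, the sum of transcripts or the longest one, no trend, other fold minimums and leaving out each library. The members and the gene lists were chosen with earlier results of these data known. The text names all members and, from each list, up to 3 called genes per direction with the largest change. A result that the rule would name in the folate list is not reported here. Other genes were named after their values were seen. Exon overlaps came from GENCODE v29 and promoters from RefSeq. Plots were drawn with matplotlib 3.10.9.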

Additional observations from a re-analysis of the deposited data

How the results depend on the processing

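Of the 8 tested genes, SLPI, LCN2, MUC1 and PAX8 were called higher under each of the 13 alternatives that kept the fold minimum of 1, and WFDC2 under each of the 12 that tested it, since it was not tested at a mean FPKM of at least 5. FOLR1 was called under 5 alternatives, with a log2 fold change of 1.05 for a pseudocount of 0.1, 1.03 for median scaling, 1.12 for quantile normalization, 1.05 for the sum of transcripts and 1.05 without TCP replicate 1. The cause was not tested. For WT1, under the filter, the log2 fold change was -0.30 with no filter and -0.97 with transcripts summed, which counts shared tags repeatedly. In limma fits with no library left out, the adjusted p of MSLN ranged from 7.8e-06 to 0.17 and that of CLU from 2.7e-05 to 0.0054. Both low ends came from the replicate block, a fit with 1 residual degree of freedom that leans on the spread shared across genes. They are therefore not stronger evidence. Leaving out 1 library gave 5 to 6 members called higher, 1289 to 1325 genes called higher and 1053 to 1234 called lower, from fits with 1 residual degree of freedom in which the lone library was assumed to vary like the others. A mean FPKM of at least 5 left 702 genes called higher, as fewer genes were tested. With no fold minimum, 4477 genes were higher and 5212 lower, with 7 members higher and 1 lower. With a minimum of 2, 281 were higher and 150 lower, with 4 members higher. The replicate number as a block gave 1285 higher and 1131 lower, with 5 members higher, and changed no call. Deviations of same-numbered libraries correlated at 0.093 over genes. With 2 libraries a group, this value cannot show whether same-numbered libraries were prepared together. Depth limits WT1, MUC16 and, on TCP, WFDC2, where a library holds 1 to 56 tags.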
